A study of Mus musculus with 10 samples.

Results

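PDE3B was compared with its H801A mutant in mouse GITR+ CD4+ T cells that carried one or the other in the retroviral vector MigR1, which marks transduced cells with GFP. The comparison takes the deposited log2 level of every gene on the MigR1-PDE3B array minus its level on the MigR1-PDE3B(H801A) array, 2 of the 10 arrays of the series. Each group has 1 array, so no difference has a replicate check, no test was made, and precision is limited by having so few arrays. The starting cells of both were CD25+CD4+ cells of C57BL/6 mice, labelled female and 6 to 8 weeks old. They were stimulated with 100 ng/ml each of anti-CD3 and anti-CD28 with 100 U/ml of IL-2, and infected by centrifugation with virus on days 1 and 2. On day 5 more than 70% of the cultured cells stained for Foxp3, and more than 55% of these were transduced. They were then mixed with congenic B6.SJL CD25-CD4+ cells bearing the same vector and given to mice lacking the T cell receptor alpha chain. After 3 weeks, GFP+ GITR+ CD4+ cells without the congenic marker were sorted from pooled lymph nodes and spleen. An array of cells with the empty MigR1 vector, handled in the same way, is given beside the pair. The other 7 arrays hold CD4 T cell populations sorted directly from mice, without vector, culture or transfer. These came from Foxp3(gfp/gfp) or Foxp3(gfpko/wt) mice, also 6 to 8 weeks old, and were sorted as GFP+ or GFP- cells, the latter by CD25. Some of the mice had been treated with IL-2. The range of these arrays thus spans unlike populations, and is given only where it helps to place a level. Per the labels, GITR tracked Foxp3 well in these cells, so the sort chose cells by a surface receptor and not by Foxp3 itself.

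Cyclic AMP is made from ATP by adenylyl cyclases and acts through protein kinase A, which phosphorylates the transcription factor CREB, and through the EPAC exchange factors. Phosphodiesterases end the signal by hydrolysing cyclic AMP, and PDE3B, a membrane-bound member that cyclic GMP can inhibit, is best known for its part in insulin signalling in fat and liver. In T cells a rise in cyclic AMP restrains activation through the antigen receptor, and regulatory T cells, the suppressive CD4 lineage governed by Foxp3, are known for a high content of it. H801A names the replacement of one histidine by alanine. The labels do not say what this does to the enzyme, and no measure of activity or of cyclic AMP was analysed here.

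Both arrays held the defining transcripts of T cells and of regulatory T cells. Foxp3 lay at a log2 level of 11.26 with PDE3B, 11.29 with H801A and 11.52 with the empty vector, against 2.45 to 10.86 on the 7 sorted arrays. Cd3e, a chain of the T cell receptor complex, lay at 12.20 with PDE3B, 12.01 with H801A and 12.14 with the empty vector. Tnfrsf18, which encodes GITR, lay at 10.83, 10.91 and 11.12 in the same order, and the pan-leukocyte gene Ptprc at 14.32, 14.09 and 14.07. These levels lay close together on the 3 vector arrays. Cd4 was lower than on the sorted arrays, at 8.05 with PDE3B, 8.65 with H801A and 9.29 with the empty vector against 10.30 to 10.78. A second Cd4 probe set read 3.56, 3.57 and 3.02. Of the 10 CD4 T cell defining markers measured none differed 2-fold between PDE3B and H801A. Over all genes 3.03% did, so a list this short would hold few or none at that share.

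The labelled sex went against the data on the vector arrays. Xist, the RNA that silences one X chromosome in female cells, lay at 3.31 with PDE3B, 3.94 with H801A and 3.91 with the empty vector, against 12.61 to 12.81 on the sorted arrays. Eif2s3y, a Y-linked gene, lay at 9.95, 9.65 and 9.55 in the same order, against 3.01 to 3.19, and Y-linked Kdm5d at 8.48, 8.57 and 8.31, against 2.39 to 2.48. The 3 vector arrays labelled female thus had low Xist and high Y-linked transcripts, and the 7 sorted arrays the reverse. Both arrays of the comparison share this pattern. Within it, Xist differed by -0.63, and Y-linked Uty was higher with PDE3B than with H801A in each of its probe sets, by 0.78 to 1.53, as given further below.

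The 5′ ends of control transcripts gave less signal with PDE3B than with H801A. The array carries probe sets at the 5′ end, the middle and the 3′ end of Actb, which encodes cytoplasmic actin, and of Gapdh, a glycolytic enzyme. For Actb the difference was -0.53 at the 5′ end, -0.32 in the middle and -0.11 at the 3′ end. For Gapdh it was -0.55, -0.17 and -0.03. The gap from the 3′ to the 5′ probe set of Actb was 6.38 with PDE3B, 5.95 with H801A and 5.87 with the empty vector, against 2.70 to 3.80 on the sorted arrays. All 3 vector arrays thus had wider gaps than every sorted array, and the PDE3B array had the widest. The RNA went through 2 rounds of amplification, which starts at the 3′ end. The 18 spike-in probe sets, which read RNA added from outside, differed by -0.26 to 0.24 with a median of 0.05. The part of this gap in the differences below was not tested.

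**Figure D1:**
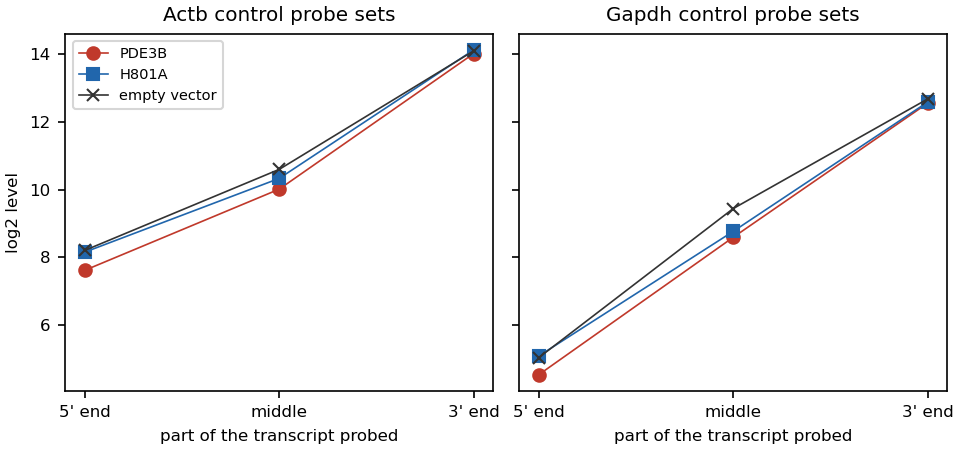
Log2 levels (vertical axis) of the Actb and Gapdh control probe sets at the 5′ end, middle and 3′ end of each transcript (horizontal axis) on the PDE3B, H801A and empty vector arrays, 1 point per array. The PDE3B array lies below both others at the 5′ end and in the middle, while the 3′ ends nearly coincide.

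Most genes differed little between PDE3B and H801A. Of the 11939 genes kept, 10422 lay within 1.5-fold of each other, which is 87.3%, and the median difference was -0.02 with quartiles of -0.26 and 0.14. A gene was counted as apart where it differed at least 2-fold and its brighter array reached that array's median over all probe sets, here taken as background. By this rule 87 genes were higher with PDE3B, 0.729% of those kept, and 275 were lower, 2.3%. Together they make 362 genes, or 3.03%. Of these 76.0% were lower, but the size of this split depends on how the arrays are scaled. Setting the median of the kept genes equal on all arrays (centring) adds 0.121 to every difference and moves the median of all genes to 0.10. It gave 151 higher and 199 lower, while quantile normalization gave 110 and 283. Since centring shifts all genes alike, a list's place beside all genes stays as it was. List medians after centring are to be read beside this 0.10. At a 3-fold threshold 12 were higher and 49 lower, and at 5-fold 4 and 1. PDE3B differed from the empty vector 2-fold at 649 genes, 5.44%, with 143 higher (1.2%) and 506 lower (4.24%). H801A differed from it at 274 genes, 2.29%, with 111 higher (0.93%) and 163 lower (1.37%). These 3 comparisons share arrays, so their counts stand side by side and are not independent.

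**Figure D2:**
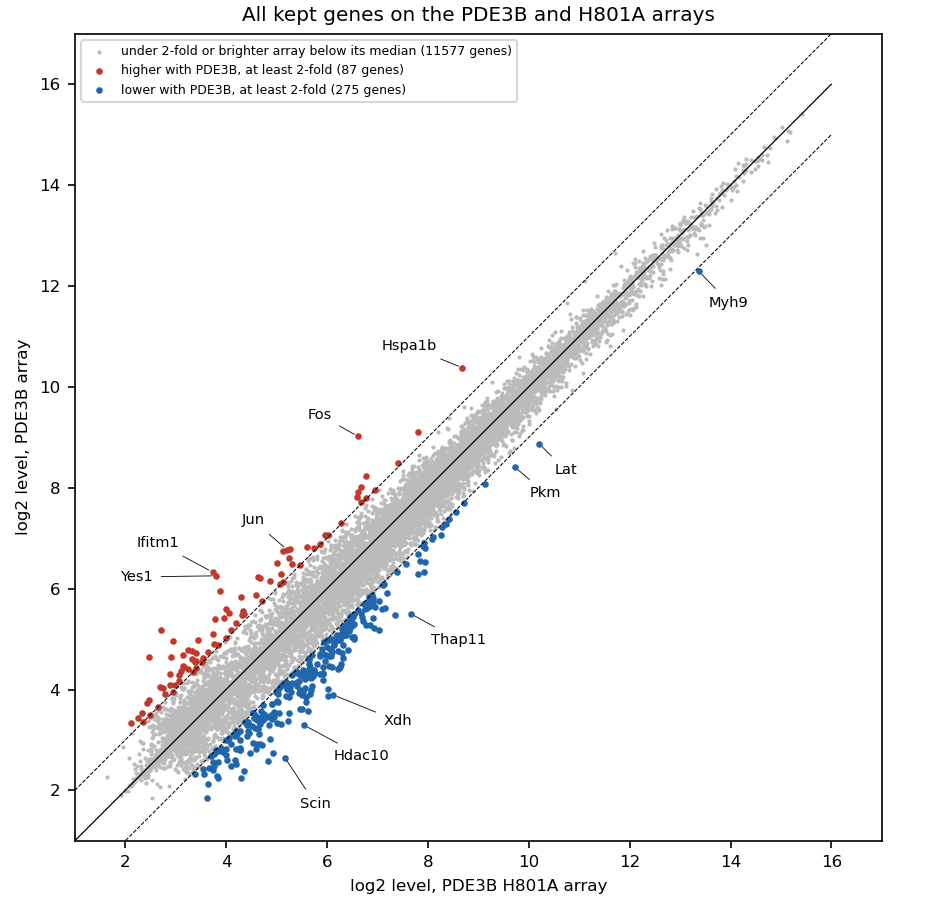
Log2 level on the PDE3B array (vertical axis) against the H801A array (horizontal axis) for the 11939 genes kept, 1 point per gene, with the line of equal levels and dashed lines at 2-fold. Colours mark the 87 genes at least 2-fold higher and the 275 at least 2-fold lower with PDE3B, nearly all of which lie in the dim part of the plot.

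The genes that stood apart were mostly dim. The median level of the genes higher with PDE3B, averaged over both arrays, was 4.63, that of the lower ones 4.95 and that of all genes 6.48. Between levels of 4 and 5, 7.86% of genes were lower with PDE3B, while of the 1388 genes at 10 or more 1 was lower and none higher. The median difference also varied with level. It was 0.02 for the 3192 genes below 4, between -0.09 and -0.11 at levels of 4 to 8, and -0.02 at 10 or more. Where a list is set beside the -0.02 or the shares over all genes below, this dependence on level is not taken out. Of the 32 higher genes with another probe set kept, 5 had one that also differed 2-fold the same way, namely Hspa1b, Lyz1, Ptpn21, Socs6 and Uty. Of the 99 such lower genes 6 did, namely Atg13, Cul5, Entr1, Lmna, Taf8 and Zmynd19. These 11 genes, named for this agreement after their values were seen, are the ones for which a second probe set repeats a 2-fold difference. All other probe sets had the same sign, whatever the size, in 16 of the 32 higher and 47 of the 99 lower genes. In 2 of the higher and 3 of the lower genes another probe set differed 2-fold the opposite way.

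Among genes with an average level of at least 8, 8 differed 2-fold. Hspa1b and Pacc1, a proton-activated chloride channel, were higher with PDE3B. Pacc1 lay at 9.11 with PDE3B, 7.81 with H801A and 7.95 with the empty vector, so that PDE3B was 2.47-fold above H801A and both other arrays lay close together. Lower with PDE3B were Myh9, Lat, Pkm, Secisbp2, Swap70 and Cebpg. Of these Myh9, Secisbp2, Swap70 and Cebpg, at -1.08, -1.06, -1.04 and -1.01, fall short of 2-fold after centring, which adds 0.121. Myh9, the heavy chain of non-muscle myosin, was the brightest of all, at 12.29 with PDE3B, 13.37 with H801A and 12.80 with the empty vector, a 2.12-fold difference with the empty vector in between. Lat, the adaptor that carries the signal of the T cell receptor from ZAP70 to its effectors, lay at 8.87, 10.21 and 10.41, 2.53-fold lower with PDE3B. Cebpg, a leucine-zipper transcription factor, lay at 7.70, 8.71 and 7.74, so there it was H801A that stood apart from the empty vector.

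Pde3b itself was 1.55-fold lower on the PDE3B array. It was read by 1 probe set, at 6.91 with PDE3B, 7.54 with H801A and 7.43 with the empty vector, inside the range of 5.90 to 11.73 on the sorted arrays. Neither vector that carries PDE3B thus lay clearly above the empty one. The place of the probe set relative to the transduced sequence, and the species that sequence came from, are not given in the labels, so this level checks neither label.

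Of 13 cyclic nucleotide phosphodiesterases measured, Pde3b among them, none was 2-fold apart, where 3.03% of all genes were, so a list this short would hold few or none at that share. Of the 13, 3 lay above 0 and 10 below, with a median of -0.11 beside -0.02 over all genes, and of 0.01 beside 0.10 after centring. Genes of all kinds at levels between 6 and 7 also had a median of -0.11. Pde1b, activated by calcium and calmodulin, had the largest difference of the list, at 5.64 with PDE3B, 6.50 with H801A and 6.86 with the empty vector. Pde2a, which cyclic GMP stimulates, was the brightest of those named, at 11.52, 11.57 and 11.73. The cyclic AMP-specific Pde4b lay at 9.84, 9.57 and 9.30 and Pde4d at 6.71, 7.25 and 7.07. Thus these related enzymes lay on opposite sides of 0, each by less than 2-fold.

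Genes that make, sense and relay cyclic AMP lay close to the median of all genes. Of 15 genes for synthesis and receptors, and of 27 of protein kinase A, EPAC and anchoring proteins, none was 2-fold apart, a count near the 3.03% over all genes in lists of this size. For synthesis and receptors 10 were above 0 and 5 below, with a median of 0.02. The adenylyl cyclase Adcy7 lay at 12.71 with PDE3B, 12.78 with H801A and 12.57 with the empty vector. The prostaglandin E2 receptor Ptger4, which raises cyclic AMP, lay at 12.83, 12.79 and 12.73. Both are bright genes whose levels lay within 1.5-fold across the vector arrays. For protein kinase A, EPAC and anchoring proteins 11 were above 0 and 16 below, with a median of -0.08 that became 0.05 after centring and 0.03 with the mean of all probe sets. The catalytic subunit Prkaca lay at 9.95, 10.38 and 10.28, and the dim regulatory subunit Prkar1b at 3.61, 2.82 and 5.25. In the insulin and PI3K-AKT pathway, where PDE3B is a known target of AKT, 8 of 27 genes were above 0 and 19 below, with a median of -0.08 that became 0.04 after centring. Akt1 lay at 8.01, 8.62 and 8.42. The only gene of that list counted as 2-fold apart was the lipid kinase subunit Pik3cb, at 2.32, 3.57 and 3.49, where the PDE3B array was below background and the bound is at least 1.27-fold.

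Listed genes known to respond to cyclic AMP through CREB showed no common direction. Fos, also a CREB target, was listed with the immediate early genes instead, and was higher with PDE3B by 2.40. Of the 17 measured 8 were above 0 and 9 below, with a median of -0.05 that became 0.07 after centring. Among them 1 was 2-fold apart, 5.88% beside 3.03% of all genes. That gene was Nr4a2, an orphan nuclear receptor, at 5.88 with PDE3B, 6.90 with H801A and 6.66 with the empty vector, a 2.03-fold lower level with PDE3B that falls short of 2-fold after centring, at -0.90. Its 3 other probe sets differed by -0.41, 0.06 and -0.47. Its relative Nr4a1 lay at 8.04, 8.28 and 8.20. Crem, a CREB family member that cyclic AMP induces, lay at 8.37, 8.29 and 8.42. The kinase Sik1, another such target, lay at 5.52, 6.02 and 5.54.

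CREB binds the cyclic AMP response element, TGACGTCA, or its short form TGACG. The stretches before the start of 5 genes that were 2-fold apart are shown, since they let a reader set the motif beside the differences. Fos and Nr4a2 are textbook CREB targets, and Mettl4, Klc1 and Zfp868 hold the full element. Each is the 150 bases before the annotated start, outside the part transcribed from that start. They run 5′ to 3′ on the gene's strand, from RefSeq on GRCm38.p6, with TGACGTCA, TGACG and its reverse complement CGTCA in capitals. The Zfp868 stretch lies downstream of that gene's other listed start, and so within the part transcribed from there.
Fos, chr12:85473740-85473889, plus strand: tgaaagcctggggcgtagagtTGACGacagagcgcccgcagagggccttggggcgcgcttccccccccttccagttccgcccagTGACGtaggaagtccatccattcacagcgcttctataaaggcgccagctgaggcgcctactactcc
Nr4a2, chr2:57124004-57124153, minus strand: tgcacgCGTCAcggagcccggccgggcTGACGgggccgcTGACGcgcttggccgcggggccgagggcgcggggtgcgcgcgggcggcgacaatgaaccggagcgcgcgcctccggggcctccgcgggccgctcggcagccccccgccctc
Mettl4, chr17:94750020-94750169, minus strand: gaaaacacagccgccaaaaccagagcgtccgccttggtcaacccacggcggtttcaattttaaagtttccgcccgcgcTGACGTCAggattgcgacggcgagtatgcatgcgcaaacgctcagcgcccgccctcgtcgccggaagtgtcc
Klc1, chr12:111758718-111758867, plus strand: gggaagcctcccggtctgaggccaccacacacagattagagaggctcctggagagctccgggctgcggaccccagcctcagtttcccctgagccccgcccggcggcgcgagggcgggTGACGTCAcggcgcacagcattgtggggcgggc
Zfp868, chr8:69625176-69625325, minus strand, the second of its listed starts: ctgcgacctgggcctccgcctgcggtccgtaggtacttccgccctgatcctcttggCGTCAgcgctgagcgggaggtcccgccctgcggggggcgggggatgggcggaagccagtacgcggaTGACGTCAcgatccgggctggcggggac

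Fos and Zfp868 were higher with PDE3B and the other genes shown lower, so the same letters stood before genes that differed in opposite directions. Fos holds the short form at 129 and 66 bases before the start. Klc1, a light chain of the kinesin motor, lay at 5.27 with PDE3B, 6.85 with H801A and 6.65 with the empty vector. Over the 250 bases before each start, searched on both strands, the full element was found in 508 of 32851 promoters, 1.55%. It stood before 276 of the genes kept, of which 1, Zfp868, was higher and 6 lower, namely Cenpe, Csnk1g2, Hps4, Klc1, Mettl4 and Sgta. That is 0.362% and 2.17%, with a median difference of -0.05. After centring Cenpe, Csnk1g2 and Sgta, at -1.03, -1.02 and -1.07 before it, fall short of 2-fold. The short form, which every full element also contains, was found in 17.8% of promoters and stood before 2915 genes kept, 0.686% of them higher and 2.30% lower. Over the 9689 genes kept with a promoter in the table the shares were 0.681% and 2.39%. The shares for the short form thus lay near those of all genes with a promoter. A match of letters is a description and not a binding site.

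Fos and Jun, which pair to form the AP-1 transcription factor, were both higher with PDE3B. Fos lay at 9.02 with PDE3B, 6.61 with H801A and 6.91 with the empty vector, 5.29-fold above H801A. On the sorted arrays it spanned 7.93 to 12.02, so only the PDE3B array of the 3 vector arrays fell inside that range. Jun lay at 6.77, 5.21 and 4.39, 2.96-fold above H801A, and a second probe set at 4.83, 3.96 and 3.77. Of 20 immediate early genes, which respond to a stimulus without new protein, these were the only ones 2-fold apart, 2 of 20 higher beside 0.729% of all genes. The list as a whole had 11 members above 0 and 9 below, with a median of 0.00. Junb, of the same family, lay the other way at 5.31, 6.18 and 5.82, and so did Ier2 at 7.25, 7.94 and 8.47. Egr1, a zinc-finger factor of the same response, lay at 10.85, 10.81 and 10.74.

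The stress-inducible HSP70 genes were higher with PDE3B, and Hspa1b also differed between the other vector arrays. Hspa1b lay at 10.38 with PDE3B, 8.69 with H801A and 5.87 with the empty vector, 3.23-fold above H801A. Its 2 other probe sets differed by 2.35 and 2.57. Hspa1a lay at 4.45, 3.17 and 2.75, 2.42-fold above H801A. Its H801A value sat at that array's background of 3.17, and its empty vector value below background. The pair are near-identical copies, so their probe sets may read both. For Hspa1b the order was PDE3B, then H801A, then the empty vector, while for Hspa1a the latter arrays lay at or below background and are not ranked. Of 14 heat shock chaperones, which refold damaged proteins, these were the only ones 2-fold apart, 2 of 14 higher beside 0.729% of all genes, with 7 members above 0, 7 below and a median of 0.00. Dnaja1, a partner of HSP70, lay at 11.44, 10.83 and 10.68. Dnajb1, another partner, lay at 11.01, 11.34 and 11.08.

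Cytotoxic genes had the highest median of the lists with at least 8 members kept. Of 13 measured of 15 listed, 11 were above 0. Of the 13, 2 (15.4%) were 2-fold higher beside 0.729% of all genes, and none 2-fold lower beside 2.3%, with a median of 0.54 and quartiles of 0.14 and 0.75. Gzmk, a granzyme, lay at 5.10 with PDE3B, 3.74 with H801A and 4.01 with the empty vector, 2.57-fold above H801A. Ccl4, a chemokine of activated lymphocytes, lay at 5.87, 4.58 and 3.95, 2.43-fold above. In both the PDE3B array was above both others. Ccl5, also a chemokine, lay at 11.65, 10.75 and 11.19. Fasl, the death ligand, lay at 7.41, 6.66 and 6.85. Gzma lay at 6.76, 6.06 and 8.50, so there the empty vector was above both. The bright granzyme Gzmb, at 11.58, 11.44 and 11.55, and the pore protein Prf1, at 4.23, 3.99 and 3.17, differed less. Against the empty vector the list's median was 0.02 for PDE3B and -0.12 for H801A. The 6 CD8 and NK cell markers measured had a median of 0.04. Their summed level on a linear scale was 69.1 with PDE3B, 71.2 with H801A and 66.3 with the empty vector, with Klrk1 below background on all 3. In bulk RNA a larger share of cells of one kind and more RNA per cell cannot be told apart.

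Among effector cytokines Ifng and Il10 were higher with PDE3B. Ifng, the type II interferon, lay at 8.49 with PDE3B, 7.41 with H801A and 7.90 with the empty vector, 2.11-fold above H801A. Il10, an inhibitory cytokine, lay at 7.79, 6.78 and 7.50, 2.01-fold above. In both genes the empty vector lay between the pair, and they are 2 of 13 cytokines, beside 0.729% of all genes higher. Of the 13 cytokines measured 8 were above 0 and 5 below, with a median of 0.07. Tnfsf11, known as RANKL, lay at 9.65, 9.08 and 9.36, and Il21, which helps B cells, at 6.01, 6.26 and 6.23.

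No interferon-induced gene of the list was 2-fold apart, beside 3.03% of all genes, while 20 of 28 were above 0, with a median of 0.15, or 0.06 with the mean of all probe sets. Rsad2, an antiviral enzyme, lay at 8.66 with PDE3B, 7.82 with H801A and 7.64 with the empty vector. Usp18, which curbs interferon receptor signalling, lay at 6.46, 5.67 and 5.76. The antiviral Ifit1 lay at 9.23, 8.66 and 8.46 and Ifit3 at 7.75, 7.12 and 7.15. In these 4 genes PDE3B lay above both other arrays. Mx1 and Irgm1, of the same response, lay the other way, Mx1 at 5.62, 6.12 and 5.49 and Irgm1 at 8.21, 8.77 and 8.18. Ifitm1, an interferon-induced membrane protein outside this list, had the largest difference of all genes measured on both arrays, at 6.33 with PDE3B and 3.73 with H801A, 6.03-fold. On the empty vector array it was higher still, at 7.07, so H801A was the array that stood apart.

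**Figure D3:**
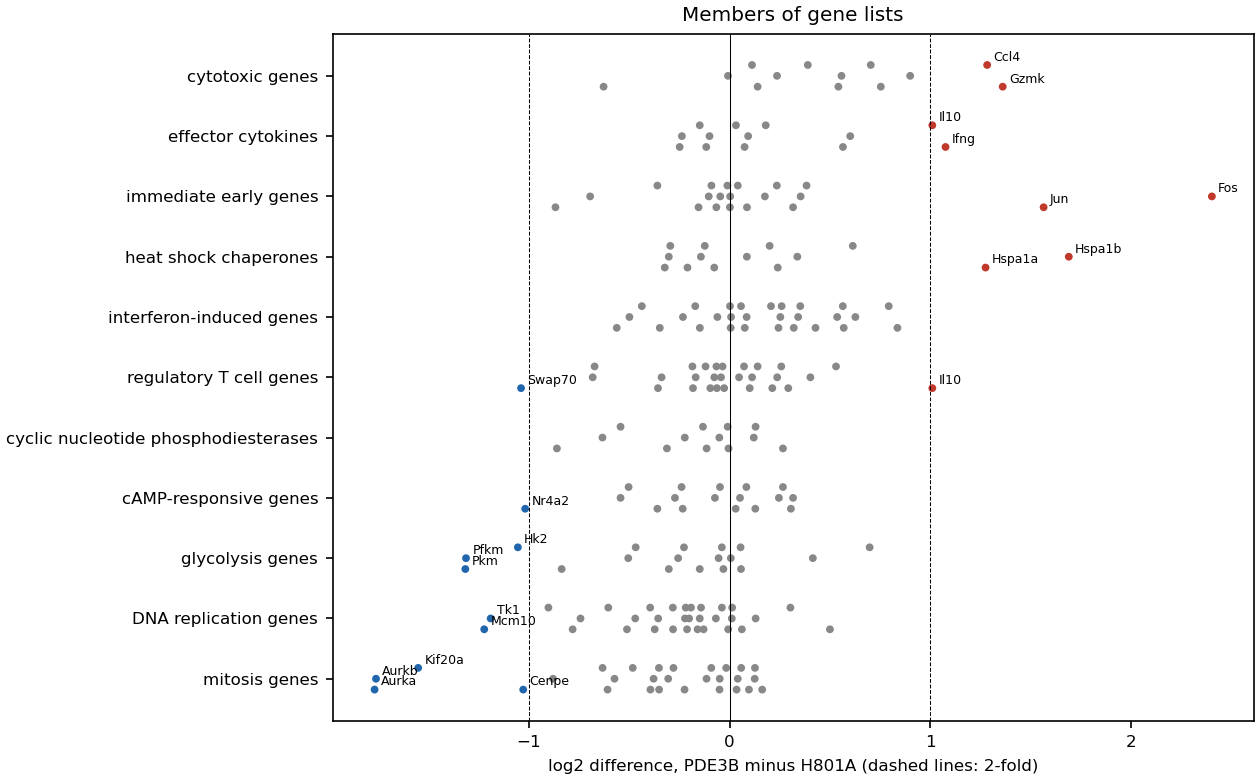
Log2 difference, PDE3B minus H801A (horizontal axis), of each measured member of 11 gene lists (vertical axis), 1 point per gene, with dashed lines at 2-fold and names and colours for members at least 2-fold apart. Fos and Jun stand far from the other immediate early genes, and Aurka, Aurkb and Kif20a from the other mitosis genes.

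Regulatory T cell genes were spread evenly around 0. Of 28 measured 12 were above 0 and 16 below, with a median of -0.04 that became 0.08 after centring. Of these 1 was 2-fold higher and 1 lower, beside 0.729% and 2.3% of all genes. The higher one was Il10 and the lower one Swap70, a guanine nucleotide exchange factor, at 7.52 with PDE3B, 8.56 with H801A and 8.34 with the empty vector, and short of 2-fold after centring, at -0.92. Ikzf4, a zinc-finger partner of Foxp3, lay at 9.81, 10.49 and 10.33. Ctla4, the inhibitory receptor, lay at 13.01, 13.19 and 13.24. For both the PDE3B array was the lowest. Il2ra, the CD25 chain, lay at 9.87, 10.04 and 10.54 in one probe set and at 8.55, 8.09 and 8.39 in another, so its probe sets disagree in direction, and their mean gave a difference of 0.15. Fgl2, a secreted suppressive protein, lay the other way at 10.62, 10.09 and 9.97.

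Lists of receptor signalling held single genes 2-fold apart, a share near the 3.03% over all genes. Of 29 genes of T cell receptor signalling 15 were above 0 and 14 below, and Lat was the only one 2-fold apart. Among IL-2 and STAT5 genes 1 of 24 was 2-fold apart, with a median of -0.05 that became 0.08 after centring. That was Jak3, the kinase of the common gamma chain, at 3.89 with PDE3B, 5.50 with H801A and 6.52 with the empty vector, 3.05-fold lower with PDE3B. The PDE3B and H801A arrays both lay below all sorted arrays, which spanned 6.50 to 7.71. Havcr2, the inhibitory receptor TIM3, was the only one apart of 19 inhibitory and activation receptors, at 6.55, 7.84 and 7.53, 2.44-fold lower with PDE3B. For Jak3 and Havcr2 alike the empty vector was nearer to H801A.

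Cell cycle genes leaned towards lower levels with PDE3B. Of 28 mitosis genes 21 were below 0, 4 (14.3%) were 2-fold lower, beside 2.3% of all genes, and none 2-fold higher, beside 0.729%. The list's median was -0.29 beside -0.02 over all genes. After centring it was -0.17 beside 0.10, and with the mean of each gene's probe sets -0.13. The median level of the list lay between 6 and 7, where genes of all kinds had a median difference of -0.11. Between levels of 4 and 5, and of 5 and 6, where the 4 lower genes lay, 7.86% and 6.97% of genes were 2-fold lower. Aurka, the kinase of the spindle poles, lay at 3.31 with PDE3B, 5.08 with H801A and 4.98 with the empty vector, 3.41-fold lower. Aurkb, the kinase of the chromosomal passenger complex, lay at 4.51, 6.27 and 6.01, 3.39-fold lower, but a second Aurkb probe set differed by -0.06. Kif20a, a kinesin of cell division, lay at 4.31, 5.87 and 5.97, 2.93-fold lower. In these 3 genes H801A and the empty vector lay close together. Cenpe, a centromere motor, lay at 4.68, 5.71 and 6.32, 2.04-fold lower, a difference of -1.03 that falls short of 2-fold after centring. The proliferation marker Mki67 lay at 11.32, 11.43 and 11.67, and Mad2l1, of the spindle checkpoint, at 8.75, 8.59 and 9.12. Of 31 DNA replication genes 25 were below 0 and 2 (6.45%) were 2-fold lower beside 2.3% of all genes, with a median of -0.21, or -0.09 after centring. These were Mcm10, which helps load the replication machinery, at 3.78, 5.00 and 4.87, and the thymidine kinase Tk1, 2.28-fold lower at 5.61 with PDE3B against 6.80 with H801A. Against the empty vector the mitosis median was -0.52 for PDE3B and -0.32 for H801A, and the replication median -0.42 and -0.20.

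Genes of ribosome biogenesis and glycolysis leaned the same way. Of 24 ribosome biogenesis genes 18 were below 0 and 2 (8.33%) were 2-fold lower beside 2.3% of all genes, with a median of -0.20, or -0.08 after centring. Polr1b, a subunit of RNA polymerase I, lay at 3.47 with PDE3B, 4.77 with H801A and 4.36 with the empty vector. Rrp9, which helps process ribosomal RNA, lay at 2.82, 4.60 and 5.19, at least 2.60-fold lower, since the PDE3B array was below background. Of 18 glycolysis genes 13 were below 0 and 3 (16.7%) were 2-fold lower beside 2.3% of all genes, with a median of -0.19, or -0.07 after centring. Pkm, pyruvate kinase, lay at 8.41, 9.73 and 10.29, 2.49-fold lower with PDE3B. The phosphofructokinase Pfkm lay at 3.87, 5.19 and 5.01, and the hexokinase Hk2 at 5.27, 6.32 and 6.58, a difference of -0.93 after centring. In all 3 the PDE3B array was the lowest, while the glucose transporter Slc2a1 lay the other way at 9.97, 9.55 and 9.36. Of 17 galectin, annexin and S100 genes 13 were below 0 and none was 2-fold apart, with a median of -0.19, or -0.07 after centring. Respiratory chain subunits, 41 in all, had a median of 0.01 with none 2-fold apart, and 12 ubiquitous control genes a median of -0.07 with none, which became 0.05 after centring.

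**Figure D4:**
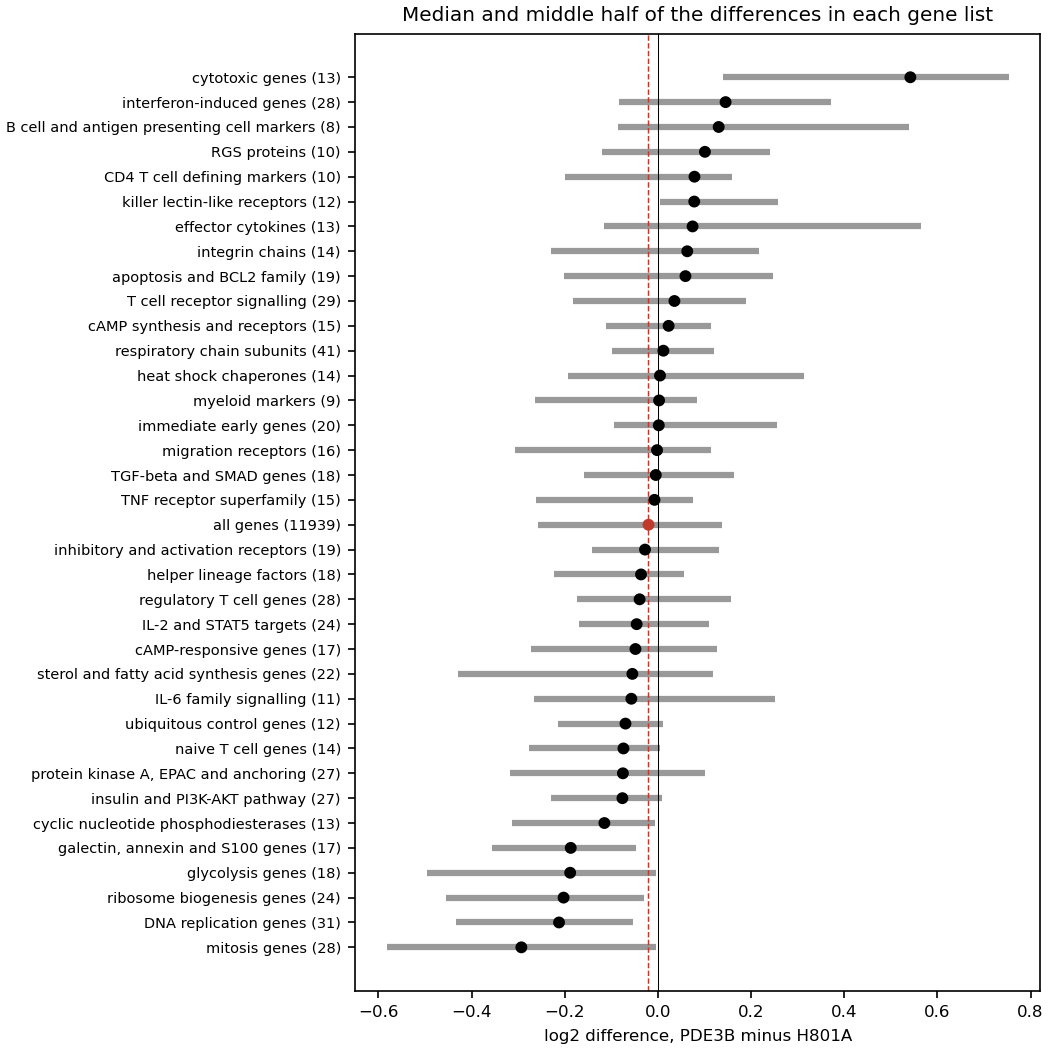
Median (point) and quartiles (bar) of the log2 difference, PDE3B minus H801A (horizontal axis), in each gene list with at least 8 members kept (vertical axis, number of members in brackets), with all genes in red. Cytotoxic genes lie highest at 0.54, and mitosis genes lowest at -0.29.

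Beyond the lists, the largest differences spanned genes of several roles. Higher with PDE3B was Yes1, a SRC family kinase, at 6.25 with PDE3B, 3.80 with H801A and 4.04 with the empty vector, 5.47-fold, though its other probe sets differed by -0.75 and 0.03. Zc2hc1a lay at 5.96, 3.89 and 4.65, 4.20-fold, with 0.46 and 0.58 in its other probe sets. H3f3b, which encodes the histone variant H3.3, lay at 6.22, 4.64 and 3.13. Slc4a8, a bicarbonate transporter, lay at 5.41, 3.78 and 4.31, and Fabp4, a fatty acid carrier of fat cells and macrophages, 1.59 above H801A at 5.59, with 4.82 on the empty vector array. BC064078 lay at 6.74, 5.13 and 5.90, but its other probe set differed by -0.28, and their mean gave 0.66, short of 2-fold. The 12 largest also held Zfp868 and Ufl1, the ligase that attaches the modifier UFM1. In 11 of these 12 genes the PDE3B array was the highest of the vector arrays, Ifitm1 being the exception.

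The largest differences in the other direction were dim on the PDE3B array. Hdac10, a deacetylase, lay at 3.30 with PDE3B, 5.54 with H801A and 5.25 with the empty vector, 4.74-fold lower. Xdh, the last enzyme of purine breakdown, lay at 3.89, 6.13 and 5.27, 4.71-fold lower. Thap11, a zinc-finger factor, lay at 5.50, 7.66 and 7.17, 4.47-fold lower. In each the PDE3B array stood apart from both others. Mettl4, a methyltransferase, was 4.45-fold lower, at 3.87, 6.03 and 5.25, but another probe set differed by -0.01. The lysosomal glucosidase Gaa lay at 6.02 with H801A and 5.96 with the empty vector and differed by -2.02 with PDE3B, while its other probe set differed by -0.06. Hadha, of mitochondrial fatty acid oxidation, lay at 3.62, 5.50 and 5.92, and Supv3l1, a mitochondrial RNA helicase, at 3.57, 5.62 and 5.92. Cemip2, Rad54l, Ubap1 and Nol9 each had other probe sets that differed by less than 2-fold, with those of Cemip2 at 0.88 and -0.07. In all 12 of the largest lower genes, 1810073O08Rik among them, the PDE3B array was the lowest of the vector arrays.

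**Figure D5:**
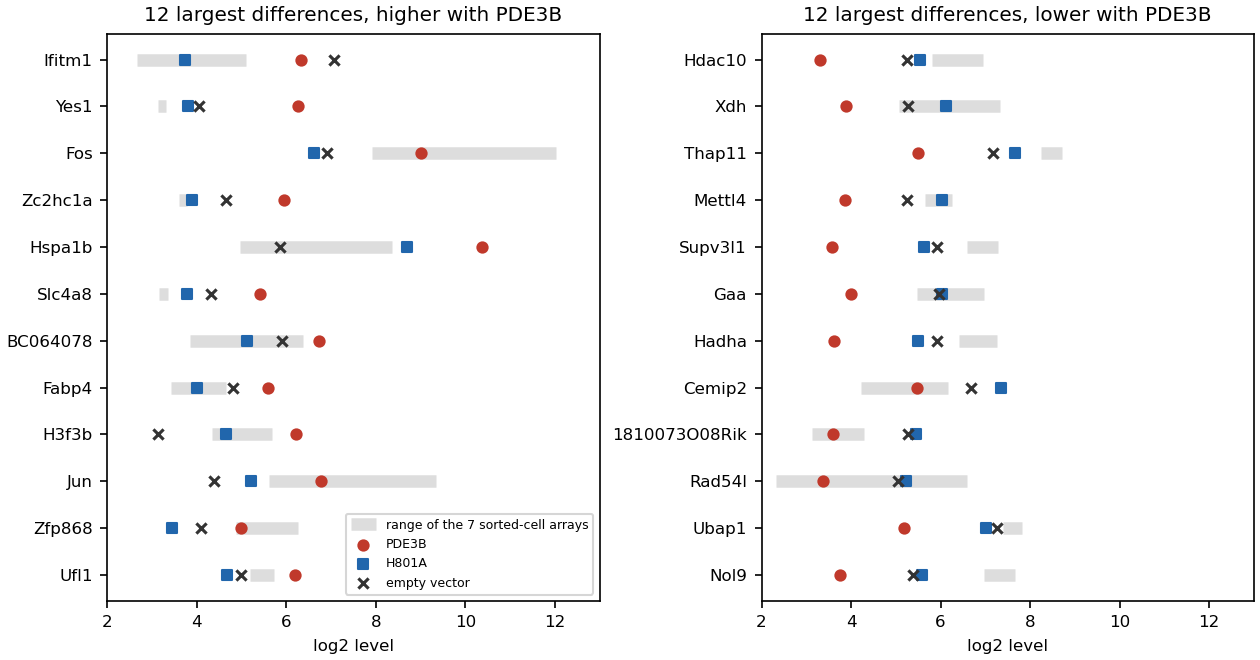
Log2 level (horizontal axis) of the 12 genes with the largest differences in each direction among those measured on both arrays (vertical axis), on the PDE3B, H801A and empty vector arrays, with grey bars for the range of the 7 sorted arrays. In the left panel PDE3B lies highest except for Ifitm1, and in the right panel it lies lowest for every gene.

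For genes at background on one array only a lower bound can be given. Higher with PDE3B were Selenom, a selenoprotein of the endoplasmic reticulum, at least 3.99-fold, with levels of 5.17 with PDE3B, 2.71 with H801A and 4.70 with the empty vector, and the calcium channel subunit Cacnb4, at least 3.44-fold, at 4.96, 2.95 and 3.08. Ptpn21, Akr1c18 and Supt3 followed at 2.85, 2.78 and 2.78 as bounds. Lower were Scin, an actin-severing protein, at least 3.84-fold, at 2.65, 5.16 and 6.01, and Slc25a30, a mitochondrial carrier, at least 3.27-fold, at 2.74, 4.93 and 3.42. Rhot2, Pacs2 and Plekho1 followed at 3.15, 3.04 and 2.80. For Selenom the empty vector array lay above background like the PDE3B array, and for Scin like the H801A array. In all, 24 of the 87 higher and 57 of the 275 lower genes had a dim side at background.

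A few markers of other cells differed. Cd79b, a chain of the B cell receptor, lay at 8.23 with PDE3B, 6.77 with H801A and 7.37 with the empty vector, 2.76-fold above H801A. It was the only one apart of 8 B cell and antigen presenting cell markers, 12.5% higher beside 0.729% of all genes. Their summed linear level was 6991 with PDE3B, 6199 with H801A and 6718 with the empty vector, and Ighm made most of it at 12.57, 12.42 and 12.50. Of 9 myeloid markers Lyz1, a lysozyme, was higher at 7.92, 6.62 and 7.32, and Csf1r, the macrophage growth factor receptor, lower at 2.48, 4.09 and 4.34, at least 1.83-fold. That is 11.1% in each direction, from 1 gene each, beside 0.729% and 2.3% of all genes. The other 7 differed by less than 2-fold, and Tyrobp and Mpeg1 were below background on all 3 arrays. The summed linear level of the myeloid list was 9171 with PDE3B, 10811 with H801A and 9666 with the empty vector. None of the plasma cell, gamma delta T cell, erythroid or stromal markers measured was 2-fold apart. Only 6, 3, 1 and 4 of these were kept, so few or none would be apart at the 3.03% of all genes. Uty, a Y-linked gene, was higher with PDE3B than with H801A in all 4 of its probe sets, by 0.78 to 1.53. The probe set that stands for it lay at 4.88, 3.85 and 4.94, with the empty vector as high as PDE3B, while the brightest on the PDE3B array lay at 7.30, 5.77 and 5.49, with the empty vector near H801A. Y-linked Kdm5d and Eif2s3y differed by less than 2-fold.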

How the data were processed

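RNA was extracted with Stat-60 and amplified in 2 rounds with a MessageAmp II kit for Affymetrix mouse arrays, per the labels' protocols. The deposited values of 45101 probe sets are on a log2 scale, as their range shows, and the authors normalized the 10 arrays together, per the series' design text. For background correction and probe summary, the software is unstated: not given in the sources used here.

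The platform's annotation gave the probe sets their genes. Of them 34958 had 1 gene, 932 several and 9211 none, and 34754 were matched by Entrez ID to the GRCm38.p6 gene table. A gene was kept where at least 1 of the 10 arrays was at or above its median over all probe sets, and its probe set of highest mean across the arrays stood for it. Where the dimmer array of the pair lay below its median, that median replaced it in the fold given as "at least". Differences of log2 values were computed with Python 3.11.15 and pandas 2.3.3. The counting was tested on simulated data with large changes in brighter genes only. That checks the counting itself and not how reliable a count is in the dim range.

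Named were the 12 largest differences in each direction measured on both arrays, the 5 largest bounds in each, up to 3 members of each of the 40 gene lists, and Pde3b, Foxp3, Cd4, Il2ra, Tnfrsf18 and Ptprc. Other list members, the brightest genes apart, the markers of sex and the genes of the promoter search were named after their values were seen. The comparison and the lists were chosen with earlier results of these data known. Alternatives were quantile normalization, centring on the median, no filter on dim genes, both arrays above their medians, the mean of probe sets, leaving out probe sets that may cross-match, and a 3-fold threshold.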

Additional observations from a re-analysis of the deposited data

How the results depend on the processing

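With 1 array in each group no replicate could be left out, and neither the spread between animals nor any p-value can be given. No paired analysis was possible because each group has 1 array. Centring gave 151 genes higher and 199 lower with PDE3B, in place of 87 and 275, and the share of higher genes went from 24.0% to 43.1%. All 87 higher genes were among the 151. The 3-fold threshold left 12 higher and 49 lower. The other settings, quantile normalization, no filter, both arrays above their medians, the mean of probe sets and leaving out possible cross-matching, gave 63 to 110 higher and 194 to 283 lower. Of the 40 list medians 20 kept their sign under quantile normalization, centring, the mean of probe sets and both arrays above their medians. Of these 5 lay below 0, for mitosis, DNA replication, ribosome biogenesis, glycolysis, and galectin, annexin and S100 genes. Centring alone changed the sign of 18. It adds 0.121 to every difference, so it turns medians less than that below 0 and cannot turn those above 0. A list's place beside all genes, whose median is 0.10 after centring, stays as it was, and these sign changes do not bear on it. With both arrays above their medians the median of the myeloid markers was 0.23 over 4 genes and the gamma delta T cell value was 0.53 from 1 gene, since fewer genes remained. Mvd, of sterol synthesis, turned from lower to higher, at 0.15 with the mean of probe sets and 1.40 without possibly cross-matching ones; its probe sets disagree. With the mean of probe sets 10 named genes kept their direction but fell short of 2-fold, Yes1, Aurkb, BC064078 and Nr4a2 among them, beside Mvd. Only named genes 2-fold apart and with more than 1 probe set could do so, and these are far fewer than the 147 named. Signal over background is the other limit: most genes apart lay in the dim range.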
